A study of Mus musculus with 12 samples.

Results

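The 10 genes of innate sensing were read from bulk RNA sequencing of sorted mouse basophil-lineage cells, namely the Toll-like receptor genes Tlr1, Tlr2, Tlr4 and Tlr6, their co-receptor Cd14 and adaptor Myd88, the anaphylatoxin receptor genes C3ar1 and C5ar1, and the formyl peptide receptor genes Fpr1 and Fpr2. They were chosen by symbol and are 10 of the 32227 genes in the count table, and each symbol matched 1 row. The 12 libraries came from C57BL/6J wild-type mice and fell into 4 groups of 3, each library pooled from several animals. The bone marrow (BM) gave CD34+ CD200R3+ cKit- CLEC12A-high basophil progenitors (BaPs), CD34- CLEC12A-high CD9-low pre-basophils, which the sample labels call immature basophils, and CLEC12A-low CD9-high mature basophils. The fourth group was mature basophils of the same CLEC12A-low CD9-high gate from the spleen. The study set pre-basophils against mature basophils, with BaPs as the reference. No group was treated or carried a modified allele, and the sort used the proteins of Cd34, Cd200r3, Kit, Clec12a and Cd9, none of which is among the 10 genes.

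Toll-like receptors bind microbial products, such as bacterial lipopeptides for heterodimers of TLR2 with TLR1 or TLR6 and lipopolysaccharide for TLR4, and most of them signal through the adaptor MyD88. The anaphylatoxins released when complement is cleaved, and the formylated peptides of bacteria and mitochondria, act instead on G protein-coupled receptors that direct granulocyte movement and degranulation. In basophils these receptors give a route of activation that does not need IgE.

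The libraries held 3596108 to 8151030 counts, and 3 counts corresponded to 0.29 to 0.955 CPM, the unit used below, in which counts are set to a common library size after scaling with TMM (trimmed mean of M-values). Markers of basophils, including Mcpt8, Prss34, Fcer1a and the sort marker Cd200r3, were detected in every group, 8 of 8 in each, with summed levels of 24459 to 65569 CPM in BaPs, 59807 to 68373 in pre-basophils, 11739 to 14479 in mature BM and 6311 to 7164 in mature spleen basophils. The low end of the BaPs was replicate 3, which stood apart from replicates 1 and 2. It also held 322.6 CPM of 5 T and NK cell markers against 4.54 and 5.89, and 215.3 CPM of 8 monocyte and macrophage markers against 32.5 and 29.9. Most of the latter sum was 1 gene, Ly6c2, at 178.2 CPM against 3.82 and 4.95. It therefore does not show a rise of the monocyte and macrophage markers as a set. In bulk RNA, a smaller number of expressing cells and less RNA per cell cannot be told apart.

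C3ar1 and C5ar1 were both lowest in BaPs, higher in pre-basophils and highest in mature BM basophils. C3ar1, the receptor for the C3 anaphylatoxin (ENSMUSG00000040552.8, GRCm38 chromosome 6, 122847138 to 122856161, minus strand, protein coding), had 21, 15.8 and 22.4 CPM in BaP replicates 1 to 3, 72.4, 60.9 and 66 CPM in pre-basophils, 185.9, 193.0 and 198.1 CPM in mature BM basophils and 181.1, 199.7 and 182.7 CPM in mature spleen basophils. The 3 groups from the marrow did not overlap, whereas the mature basophils of marrow and spleen covered the same range. The level was 3.33-fold higher in pre-basophils than in BaPs (log2 fold change of BaP against pre-basophil -1.74, SE 0.14, adjusted p = 1.73e-05). From pre-basophils to mature BM basophils it was a further 2.9-fold higher (pre-basophil against mature BM -1.53, SE 0.13, adjusted p = 3.17e-06). Across the whole span the difference was 9.65-fold (BaP against mature BM -3.27, SE 0.14, adjusted p = 4.91e-09), and it was -3.37 without BaP replicate 3. Spleen against mature BM basophils gave a log2 fold change of -0.03 with a 95% interval of -0.30 to 0.23 (adjusted p = 0.9).

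C5ar1, the receptor for the C5 anaphylatoxin (ENSMUSG00000049130.6, GRCm38 chromosome 7, 16246743 to 16259540, minus strand, protein coding), had 11.5, 6.37 and 12.5 CPM in the BaPs, 43.3, 35.1 and 38.1 CPM in the pre-basophils, 122.2, 86.4 and 124.3 CPM in mature BM basophils and 55.4, 88.1 and 42 CPM in mature spleen basophils. It followed the same order within the marrow, again with no overlap between the 3 groups, but the spleen libraries spread from within the range of the pre-basophils into that of the mature BM basophils. C5ar1 was 3.73-fold higher in pre-basophils than in BaPs (-1.90, SE 0.29, adjusted p = 0.00178) and 2.86-fold higher in mature BM basophils than in pre-basophils (-1.52, SE 0.26, adjusted p = 0.000757). BaPs and mature BM basophils differed 10.7-fold (-3.42, SE 0.29, adjusted p = 8.99e-07, and -3.63 without BaP replicate 3). In the spleen the mean was 61.8 ± 23.7 CPM (SD, n = 3) against 111.0 ± 21.3 CPM in the marrow (spleen against mature BM -0.85, 95% interval -1.39 to -0.31, adjusted p = 0.0551). That difference did not pass the test, and it did in 6 of 14 alternative analyses, whose adjusted p ran from 2.1e-05 to 0.213. The lowest came from the fit with no filter on low counts, which gave far smaller p-values than the main fit. For C3ar1, pre-basophil against mature BM, its adjusted p was 1.56e-20 against 3.17e-06. One of the 6 left out mature spleen replicate 2, the spleen library with the highest C5ar1 (-1.19, adjusted p = 0.0264).

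**Figure D1:**
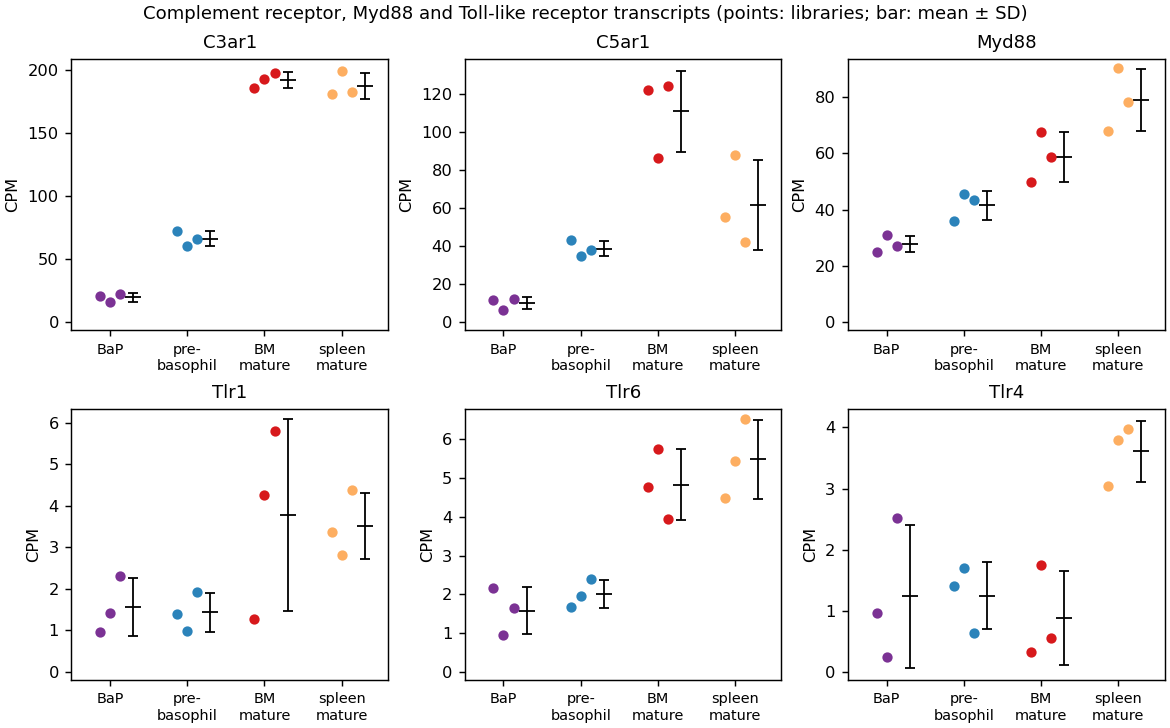
CPM of C3ar1, C5ar1, Myd88, Tlr1, Tlr6 and Tlr4 in each library of the 4 groups on a linear axis, with points for libraries and bars for the mean ± SD (n = 3). C3ar1 stands at 15.8 to 22.4 CPM in BaPs and 185.9 to 198.1 CPM in mature BM basophils, while Tlr1, Tlr6 and Tlr4 stay below 7 CPM in every library.

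The ratio of C3ar1 to C5ar1 CPM within a library, compared between libraries only, was 1.83, 2.48 and 1.79 in the BaPs, 1.67, 1.74 and 1.74 in the pre-basophils and 1.52, 2.23 and 1.59 in mature BM basophils. In mature spleen basophils it was 3.27, 2.27 and 4.35, above each library of the mature BM group. The log2 ratio of spleen exceeded that of mature BM basophils by 0.86 (exact two-sided permutation p = 0.1, the smallest that 3 against 3 libraries allow). Per kilobase of exon, which allows levels of different genes to be compared, the mature BM basophils had 44.7 ± 1.42 CPM per kb of C3ar1 (SD, n = 3) and 43.2 ± 8.29 CPM per kb of C5ar1, which did not differ beyond their spread. In mature spleen basophils the levels were 43.6 ± 2.38 and 24.1 ± 9.24 CPM per kb. These values take reads to fall evenly along the transcripts, which was not tested.

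Because C3ar1 and C5ar1 moved together through the marrow stages, the sequences around their start sites are shown, 250 bases before and 50 bases after the RefSeq start of each gene (GRCm38.p6, minus strand, written 5′ to 3′ in the direction of transcription, C3ar1 at chr6:122856108-122856407 and C5ar1 at chr7:16259289-16259588). Capitals mark every match, on either strand, to the 5 motifs searched. They were AGGAAG, the core that ETS factors bind, and TTGCNNAA for C/EBP factors. The others were AGATAA for GATA factors, TGACTCA for AP-1 and, for RUNX factors, the letters TGTGGT.
C3ar1: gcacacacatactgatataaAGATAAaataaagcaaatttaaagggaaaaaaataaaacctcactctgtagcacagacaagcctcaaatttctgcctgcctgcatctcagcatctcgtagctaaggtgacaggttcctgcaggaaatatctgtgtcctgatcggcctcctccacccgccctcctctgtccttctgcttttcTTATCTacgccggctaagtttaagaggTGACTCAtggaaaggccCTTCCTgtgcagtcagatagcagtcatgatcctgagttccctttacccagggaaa
C5ar1: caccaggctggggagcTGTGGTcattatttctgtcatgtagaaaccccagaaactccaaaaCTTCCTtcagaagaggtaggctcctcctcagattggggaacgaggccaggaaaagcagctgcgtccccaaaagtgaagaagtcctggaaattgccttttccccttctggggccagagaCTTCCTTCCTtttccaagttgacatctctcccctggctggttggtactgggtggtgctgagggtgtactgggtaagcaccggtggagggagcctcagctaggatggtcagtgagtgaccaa
The C3ar1 window held 4 matches, GATA letters at positions 21 and 202, AP-1 letters at 229 and ETS letters at 246, counted from the first base shown. The C5ar1 window also held 4, RUNX letters at 17 and ETS letters at 62, 180 and 184, the last pair overlapping. Among 32851 RefSeq promoter windows of the same 300 bases, 35.4% held the ETS letters, 11.2% the GATA letters, 5.2% the AP-1 letters, 16.8% the RUNX letters and 10.8% the C/EBP letters. The corresponding window of Myd88 held 0 matches. A match describes letters in this window and shows no binding.

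Myd88, the adaptor that most Toll-like receptors and the IL-1 receptor family share (ENSMUSG00000032508.8, GRCm38 chromosome 9, 119335934 to 119341411, minus strand, protein coding), had 25.1, 30.9 and 27.1 CPM in the BaPs, 35.8, 45.5 and 43.2 CPM in the pre-basophils, 49.6, 67.6 and 58.8 CPM in mature BM basophils and 68, 90.1 and 78.2 CPM in mature spleen basophils. Each group lay above the one before it with no overlap, in smaller steps than those of the complement receptors. The mean rose from 27.7 ± 2.94 CPM in BaPs to 41.5 ± 5.09 CPM in pre-basophils, a 1.5-fold difference (BaP against pre-basophil -0.59, SE 0.16, adjusted p = 0.0388). It was 58.7 ± 8.98 CPM in mature BM basophils, 1.41-fold above pre-basophils (-0.50, SE 0.15, adjusted p = 0.027) and 2.12-fold above BaPs (-1.09, SE 0.16, adjusted p = 7.85e-05). Spleen mature basophils, at 78.8 ± 11.1 CPM, were not called against mature BM basophils (0.42, 95% interval 0.10 to 0.74, adjusted p = 0.1).

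The calls of the smaller Myd88 steps depended on the scaling, the fit and single libraries. With library size alone in place of TMM, under which the median over all tested genes went from 0 to 0.22 for pre-basophil against mature BM basophil and from 0.02 to 0.23 for BaP against pre-basophil, Myd88 gave -0.28 (adjusted p = 0.263) and -0.38 (adjusted p = 0.178). Relative to these medians the direction was unchanged. Over 14 alternatives the adjusted p ran from 0.00333 to 0.263 for the first comparison, which was also lost under the scheme rebuilt after the study's package (-0.42, adjusted p = 0.0713) and without pre-basophil replicate 1 (0.123) or 3 (0.0584) or mature BM replicate 2 (0.134) or 3 (0.0675). For the second it ran from 0.00588 to 0.178, and the call was also lost in a fit of only these groups (-0.57, adjusted p = 0.0785) and without BaP replicate 1 (0.0889) or pre-basophil replicate 1 (0.0543), 2 (0.152) or 3 (0.13). BaP against mature BM basophil passed in all 14.

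Tlr6 and Tlr1, whose proteins pair with TLR2 to bind lipopeptides, were found at a few CPM. Tlr6 (ENSMUSG00000051498.6, GRCm38 chromosome 5, 64952031 to 64960097, minus strand) had 2.15, 0.943 and 1.65 CPM in the BaPs, 1.68, 1.95 and 2.4 CPM in the pre-basophils, 4.77, 5.76 and 3.93 CPM in mature BM basophils and 4.48, 5.45 and 6.51 CPM in mature spleen basophils. Every mature library lay above every BaP and pre-basophil library. Tlr6 was 2.32-fold higher in mature BM basophils than in pre-basophils (-1.22, SE 0.33, adjusted p = 0.0152) and 2.98-fold higher than in BaPs (-1.58, SE 0.34, adjusted p = 0.00169), whereas BaP against pre-basophil gave -0.36 (95% interval -1.14 to 0.42). The first of these was lost without pre-basophil replicate 1 (adjusted p = 0.0603) or 2 (0.0519) or mature BM replicate 2 (0.0669), within a range of 0.00867 to 0.0669 over 14 alternatives.

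Tlr1, the neighbouring gene (ENSMUSG00000044827.10, GRCm38 chromosome 5, 64924679 to 64933563, minus strand), had 0.956, 1.41 and 2.32 CPM in the BaPs, 1.4, 0.974 and 1.92 CPM in the pre-basophils, 1.27, 4.26 and 5.8 CPM in mature BM basophils and 3.36, 2.81 and 4.38 CPM in mature spleen basophils. One mature BM library, replicate 1, lay within the range of the BaPs and the pre-basophils, and the other two lay above it. The difference between pre-basophils and mature BM basophils did not pass the test (-1.41, SE 0.50, adjusted p = 0.051). It did in 5 of 13 alternatives, within a range of adjusted p from 0.0118 to 0.266 over all 13. Among the 5 were the replicate number as a block, which pairs the marrow libraries (-1.40, adjusted p = 0.0251), and leaving out mature BM replicate 1 (-1.77, adjusted p = 0.0118). The others were no filter (0.0303), the scheme rebuilt after the study's package (0.0382) and relative log expression scaling (0.0454). BaP against mature BM basophil was called at the edge of the threshold (-1.21, SE 0.47, adjusted p = 0.0497), and 6 of 14 alternatives called it (adjusted p from 0.00897 to 0.286). It was lost without BaP replicate 1 (0.14) or 2 (0.113) or mature BM replicate 2 (0.12) or 3 (-0.76, 0.286), and it was -1.73 (0.0174) without BaP replicate 3. Tlr1 reached the level of the filter in 1 BaP, 1 pre-basophil, 2 mature BM and 3 mature spleen libraries. It passed mainly through the mature groups, where it is high, so its calls support nothing. Tlr1 and Tlr6 share sequence. Of the 50-base windows in annotated Tlr1 transcripts, 15.4% also occur in other genes, 454 of them in Tlr6, and for Tlr6 the share is 12.3%, so reads could be split between them and their levels are uncertain.

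Tlr4, the lipopolysaccharide receptor (ENSMUSG00000039005.13, GRCm38 chromosome 4, 66827584 to 66930284, plus strand), was, of the 4 Toll-like receptor members, the one whose highest levels were in the spleen alone. It had 3.04, 3.8 and 3.98 CPM in mature spleen basophils, against 0.318, 1.75 and 0.562 CPM in mature BM basophils, 1.4, 1.7 and 0.64 CPM in pre-basophils and 0.956, 0.236 and 2.52 CPM in BaPs. The spleen libraries lay above every other library, and the next highest was BaP replicate 3. Spleen against mature BM basophil gave 2.0 (SE 0.63, 95% interval 0.65 to 3.36, adjusted p = 0.0685), which did not pass, and 3 of 14 alternatives called it (adjusted p from 0.00788 to 0.224). The lowest of these came from the fit with no filter. Tlr4 passed the filter only through the spleen libraries and 1 BaP library, so calls of this comparison support nothing. The other 3 comparisons were not called, and BaP against mature BM basophil turned from 0.71 to -0.55 without BaP replicate 3. Beside these values, 4 B cell markers (Cd79a, Cd79b, Ms4a1 and Pax5) summed to 125.9, 72.9 and 69.6 CPM in mature spleen basophils and to 17.8 to 47.5 CPM in the other 9 libraries, with all 4 detected in each group. The 8 monocyte and macrophage markers summed to 43.2 to 44.6 CPM in mature spleen and 28.5 to 38.7 CPM in mature BM basophils, and among them Adgre1, which encodes F4/80, had 15.7, 15.5 and 16.2 CPM against 6.36, 4.26 and 8.42 CPM. The part of either marker list in the Tlr4 level was not tested.

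Cd14, which hands lipopolysaccharide to TLR4 (ENSMUSG00000051439.7), was close to the detection limit and went the other way along the lineage. BaPs gave 7, 2 and 17 counts, pre-basophils 4, 2 and 5, mature BM basophils 1, 1 and 0 and mature spleen basophils 0, 1 and 0, and it did not pass the filter on low counts. Taking each group's counts together, the level in BaPs was 8.65 times that in mature BM basophils (95% interval 2.17 to 75.2, counting error only), and in pre-basophils it was 4.92 times (1.07 to 45.7). In a fit with no filter, BaP against mature BM basophil was 2.84 (adjusted p = 0.0223) and pre-basophil against mature BM basophil 2.13 (adjusted p = 0.238). That fit gave far smaller p-values than the main one, as shown for C3ar1, so neither value counts as a call.

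Tlr2, the common partner of TLR1 and TLR6 (ENSMUSG00000027995.10, GRCm38 chromosome 3, 83836272 to 83841767, minus strand), was also too low for the filter. BaPs gave 1, 3 and 14 counts, pre-basophils 3, 5 and 8, mature BM basophils 2, 2 and 0 and mature spleen basophils 1, 2 and 7. The spleen libraries overlapped each of the other groups. The level in pre-basophils was 3.58 times that in mature BM basophils (95% interval 1.16 to 14.7, counting error only), and a fit with no filter gave 1.71 (SE 0.89, adjusted p = 0.256). A difference between any of the 4 groups was not detectable at this depth (adjusted p = 0.382 in that fit).

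The formyl peptide receptors were found in some BaP and pre-basophil libraries and were at or near 0 in mature basophils. Fpr2 (ENSMUSG00000052270.7, GRCm38 chromosome 17, 17887824 to 17893952, plus strand) had 0, 11 and 41 counts in BaPs and, in pre-basophils, 2, 8 and 31, against 0, 0 and 2 in mature BM basophils and 3, 1 and 0 in mature spleen basophils. The 3 replicates of a group were far apart, from 0 to 3.97 CPM for BaPs and from 0.559 to 4.96 CPM for pre-basophils, and BaP replicate 1 with 0 counts could hold up to 0.717 CPM. Fpr2 in pre-basophils was 18.4 times its level in mature BM basophils (95% interval 4.77 to 156.6, counting error only), and in BaPs 17.3 times (4.55 to 146.6). Both comparisons were called (pre-basophil against mature BM 3.91, SE 1.32, adjusted p = 0.0403, and BaP against mature BM 3.76, SE 1.31, adjusted p = 0.031), with fitted values that depend on how so few counts are smoothed. Fpr2 passed the filter only through 2 BaP and 2 pre-basophil libraries, the groups where it is high, so both calls support nothing. The first was lost in 6 of 13 alternatives, the highest adjusted p being 0.217 without pre-basophil replicate 3 (2.86), and the second in 5 of 13, the highest being 0.134 with limma-voom. Without BaP replicate 3 the second gave 2.86 (adjusted p = 0.104). Leaving out mature BM replicate 1, 2 or 3 also ended both calls.

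Fpr1 (ENSMUSG00000045551.7, GRCm38 chromosome 17, 17876471 to 17883940, minus strand), the receptor with high affinity for bacterial formyl peptides, had 0, 0 and 15 counts in the BaPs, 2, 2 and 16 in the pre-basophils, 0, 1 and 0 in mature BM basophils and 0, 0 and 1 in mature spleen basophils, and did not pass the filter. Replicate 3 of BaPs and of pre-basophils held 31 of its 37 counts. The level in pre-basophils was 17.9 times that in mature BM basophils (95% interval 2.86 to 742.1, counting error only), and a fit with no filter gave 3.68 (SE 1.15, adjusted p = 0.0132). As for Cd14, the p-values of that fit ran low, so this does not count as a call. For BaPs the ratio was 9.98 (1.54 to 420.1) and the fit gave 2.71 (adjusted p = 0.0997). Fpr1 and Fpr2 shared 1 of the 50-base windows with each other, but 31.5% of those of Fpr2 also occur in other annotated genes, so its level is uncertain.

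Most neutrophil markers, but not all, stood in the library order of Fpr2 in BaPs and in pre-basophils. Fpr1, highest in replicate 3 of both groups, was not compared in this way. The summed level of 10 markers of neutrophils and their precursors was 1900, 2019 and 2540 CPM in the BaPs, 917.9, 1195 and 2187 CPM in the pre-basophils, 104.8 to 148.0 CPM in mature BM and 66.2 to 73.8 CPM in mature spleen basophils, and all 10 were detected in each group. S100a8, a calprotectin subunit abundant in neutrophils, reached 14.6, 137.9 and 370.1 CPM in the BaP libraries and 45.3, 148.0 and 333.1 CPM in those of pre-basophils, so that within either group the libraries stood in the same order for S100a8 as for Fpr2. This held in both groups for 7 of the 10 markers. Ly6g, which marks mature neutrophils, had 1.19, 1.65 and 5.23 CPM in the BaP libraries and 0.839, 2.43 and 5.44 CPM in pre-basophils. Mpo, a granule enzyme made by early granulocyte precursors and here the largest part of the sum in BaP replicates 1 and 2, went the other way, with 1792, 1402 and 562.3 CPM in the BaP libraries and 623.0, 441.1 and 459.1 CPM in those of pre-basophils. Elane, made at the same stage, was lowest in replicate 3 of both groups (8.81 and 2.56 CPM), and Csf3r was the other marker not in that order. The part of these cells in the Fpr1, Fpr2, Cd14 and Tlr2 levels was not tested.

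**Figure D2:**
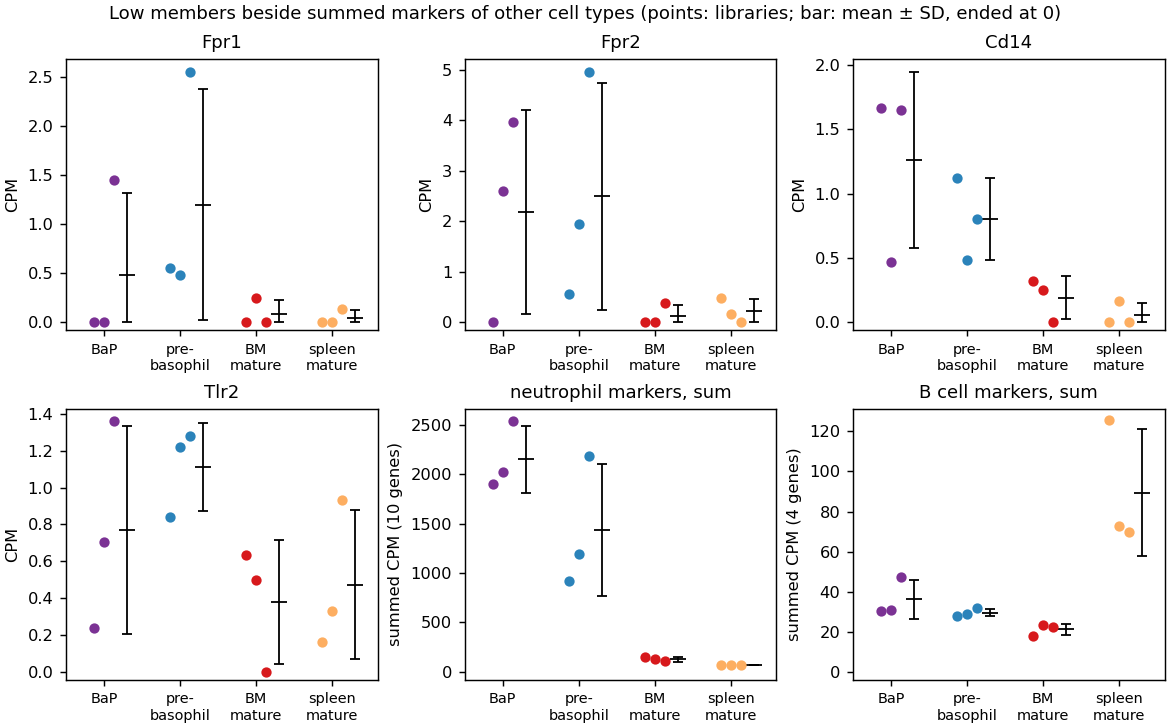
CPM of Fpr1, Fpr2, Cd14 and Tlr2 in each library, beside the summed CPM of 10 neutrophil and 4 B cell markers, with points for libraries and bars for the mean ± SD (n = 3), ended at 0. Fpr2 reaches 3.97 CPM among BaPs and 4.96 CPM among pre-basophils, both in replicate 3, which also has the highest neutrophil sum of each group.

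Set per kilobase of exon, the members fell into an abundant and a scarce group in mature basophils. This ranking again takes reads to fall evenly along the transcripts, which was not tested. In mature BM basophils Myd88, at 22.8 ± 3.49 CPM per kb, stood below C3ar1 and C5ar1, followed at a distance by Tlr6 with 1.29 ± 0.245 and Tlr1 with 1.13 ± 0.688 CPM per kb, which did not differ beyond their spread. The other 5 lay between 0.063 CPM per kb for Fpr1 and 0.158 for Tlr4. In mature spleen basophils Myd88, at 30.6 ± 4.29 CPM per kb, came second to C3ar1, and its range met that of C5ar1. In BaPs Myd88 led with 10.8 ± 1.14 CPM per kb, ahead of C3ar1 with 4.58 ± 0.806 and C5ar1 with 3.93 ± 1.28, and Fpr2 with 1.69 ± 1.56 CPM per kb overlapped C5ar1. In pre-basophils these 3 genes lay at 16.1 ± 1.97, 15.4 ± 1.34 and 15.1 ± 1.63 CPM per kb in that order, closer to each other than the spread between libraries.

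Counting calls over the set, 7 of the 10 genes passed the filter and were tested with edgeR's quasi-likelihood test. Fpr2 passed only through BaP and pre-basophil libraries, Tlr4 through the spleen and 1 BaP library, and Tlr1 mainly through mature libraries. The counts below therefore describe the set and support nothing. For pre-basophil against mature BM basophil 5 of 7 were called, 4 higher in mature BM basophils (C3ar1, C5ar1, Myd88 and Tlr6) and 1 higher in pre-basophils (Fpr2), where 27.3% of all 15083 tested genes were called, 11% higher in mature BM basophils and 16.3% higher in pre-basophils. For BaP against pre-basophil 3 were called, each higher in pre-basophils (C3ar1, C5ar1 and Myd88), where 7.08% of all genes were called, 4.29% higher in pre-basophils and 2.79% higher in BaPs. For BaP against mature BM basophil 6 were called, 5 higher in mature BM basophils and Fpr2 higher in BaPs, where 45% of all genes were called, 19.7% and 25.3% in those directions. Without BaP replicate 3 that count was 5, with Fpr2 lost. The 5 calls of pre-basophil against mature BM basophil became 3 without any 1 of the pre-basophil libraries or without mature BM replicate 3, and 2 without mature BM replicate 2, always through Myd88, Tlr6 or Fpr2.

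Between spleen and mature BM basophils edgeR called 0 of the 7, where 7.83% of all genes were called, 3.16% higher in the spleen and 4.67% higher in the marrow. At an unadjusted p under 0.05 there were 3 (C5ar1, Myd88 and Tlr4), and DESeq2 called 1 and limma-voom 1. The shares of all genes at these settings are not given here, and Tlr4 passed the filter through the spleen and 1 BaP library. Such counts therefore support nothing. The test of any difference among the 4 groups called each of the 7, where it called 57.8% of all genes. The comparisons with mature BM basophils share those 3 libraries, so their values are not independent of each other. Library size alone raised the share of called genes that were higher in the less mature group from 59.8% to 82.5% for pre-basophil against mature BM basophil, from 39.4% to 79.6% for BaP against pre-basophil and from 56.3% to 82.9% for BaP against mature BM basophil, and for the spleen from 40.4% to 60.6%.

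**Figure D3:**
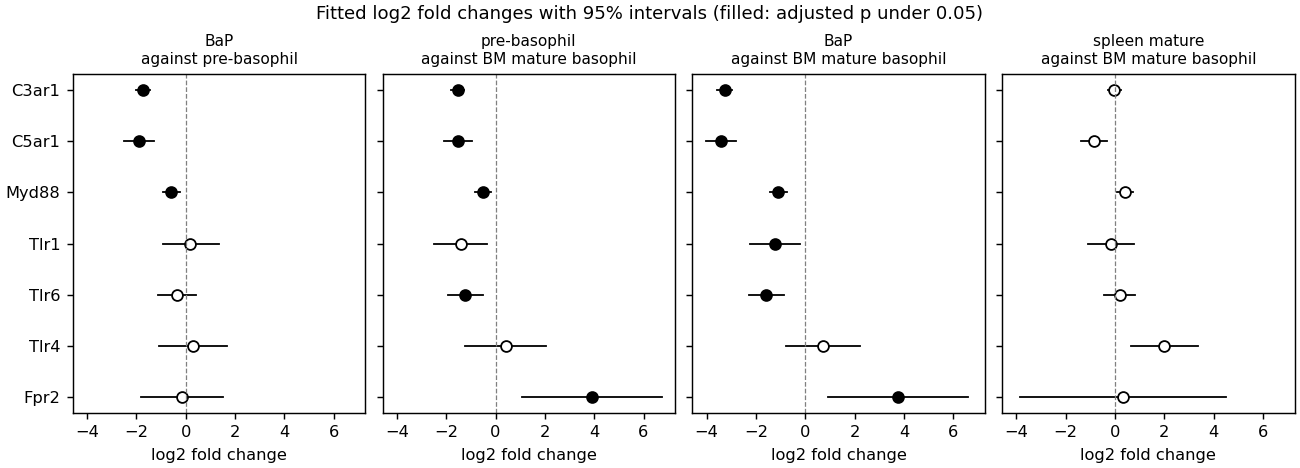
Fitted log2 fold changes of the 7 tested genes in 4 comparisons (a value below 0 is lower in the group named first), with bars for 95% intervals and filled points for an adjusted p under 0.05. C3ar1, C5ar1 and Myd88 are filled and below 0 in the 3 marrow comparisons, and no point is filled for the spleen.

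The rest of the pathway was read from lists of genes fixed by name, whose counts of calls describe the lists and were not tested against other genes. Among 7 other Toll-like receptor genes in the table, 1 passed the filter, Tlr12, a receptor for profilin of parasites. Tlr12 had 4.27 ± 1.2 CPM in BaPs, 6.2 ± 1.39 CPM in pre-basophils, 4.35 ± 1.3 CPM in mature BM and 3.28 ± 0.644 CPM in mature spleen basophils and was called in none of the 4 comparisons (adjusted p from 0.248 to 0.9). The endosomal receptor genes Tlr3, Tlr7, Tlr8 and Tlr9 had 18, 24, 4 and 6 counts over all 12 libraries.

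Of 7 tested accessory proteins of Toll-like receptors, 2 were higher and 0 lower in pre-basophils than in mature BM basophils, where 16.3% of all genes were called higher and 11% lower, with a list median of 0 on the log2 scale against 0 over all genes. A count of 2 of 7 is near the 27.3% called over all genes. Lbp, which carries lipopolysaccharide to CD14, had 13 ± 4.67 CPM in BaPs, 6.79 ± 0.637 in pre-basophils, 1.99 ± 1.14 in mature BM and 0.569 ± 0.455 in mature spleen basophils (pre-basophil against mature BM 1.72, adjusted p = 0.0155). It passed the filter of about 1.9 CPM mainly through BaPs and pre-basophils, where it is high, so its calls support nothing. Hsp90b1, the chaperone that folds many Toll-like receptors, was at 914.4 ± 101.4 CPM in pre-basophils and 453.1 ± 19 in mature BM basophils (1.01, adjusted p = 0.00172). Ly96, the MD-2 protein that TLR4 needs to bind lipopolysaccharide, went the other way, from 2.7 ± 0.735 CPM in BaPs to 7.14 ± 0.85 in mature BM basophils (BaP against mature BM -1.42, adjusted p = 0.00113). In the spleen 2 members of this list were called higher than in mature BM basophils, where 3.16% of all genes were called higher. They were Cd180 (2.65, SE 0.76, adjusted p = 0.0486) and its partner Ly86 (4.17, SE 0.83, adjusted p = 0.0118), both known from B cells and named here after their values were seen. Their means were 4.19 and 4.67 CPM in the spleen and at most 1.04 and 1.09 CPM in any other group. They passed the filter mainly through the spleen, so these calls support nothing. They moved with the B cell markers given above, and the part of those cells was not tested.

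Among 19 tested adaptors and kinases, 1 was higher and 4 were lower in pre-basophils than in mature BM basophils (median -0.22), and 2 were higher and 6 lower in BaPs (median -0.21 against 0.05 over all genes). In all, 5 and 8 of 19 were called, near the 27.3% and 45% over all genes. Ikbkb, the kinase that releases NF-kB, went from 80.2 ± 0.896 CPM in BaPs through 120.4 ± 8.22 in pre-basophils to 169.7 ± 5.77 in mature BM basophils (BaP against mature BM -1.08, SE 0.10, adjusted p = 1.85e-06). Peli1, a ubiquitin ligase that acts on IRAK proteins, had 38.8 ± 1.12 CPM in pre-basophils and 88.5 ± 11.2 in mature BM basophils (-1.19, adjusted p = 0.00839), and Tab2, which links TRAF6 to the kinase TAK1, had 78.2 ± 5.52 and 127.4 ± 10.2 CPM (-0.70, adjusted p = 0.0185). Ube2n, the ubiquitin-conjugating enzyme used by TRAF6, was the one called higher in pre-basophils (0.40, adjusted p = 0.0134). Traf3, an adaptor that restrains part of this signalling, was higher in BaPs than in mature BM basophils (0.53, adjusted p = 0.0415), a call lost without BaP replicate 3 (0.44, adjusted p = 0.0901). Peli1 in BaPs, at 41.4 ± 25.7 CPM, differed from mature BM basophils by -1.06 (adjusted p = 0.00854), or -1.73 without that replicate.

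Of 8 tested transcription factors downstream of these receptors, 0 were higher and 1 lower in pre-basophils, and 0 were higher and 4 lower in BaPs than in mature BM basophils (medians -0.29 and -0.45), where 27.3% and 45% of all genes were called. Irf3 was the one called in pre-basophils (-0.48, adjusted p = 0.031), with 43.1 ± 3.31 CPM against 60.2 ± 3.88. Nfkb1 rose from 65.8 ± 11.7 CPM in BaPs to 102.6 ± 6.51 in mature BM basophils (-0.63, adjusted p = 0.000985), and Rel, another NF-kB subunit gene, from 89 ± 10.5 to 116.2 ± 20.7 CPM (-0.39, adjusted p = 0.0327). Without BaP replicate 3, chosen after its markers were seen, 6 rather than 4 were lower in BaPs, although Rel was no longer called (-0.28, adjusted p = 0.0786). The share called over all genes in that fit is not given here, so this count describes the list only.

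Among 12 tested complement receptors and surface regulators, 2 were higher and 2 lower in pre-basophils than in mature BM basophils, and 4 were higher and 4 lower in BaPs (medians 0.15 and -0.39). Over all genes 16.3% were called higher and 11% lower in pre-basophils, and 25.3% higher and 19.7% lower in BaPs. The lower ones included C5ar2, the second receptor for the C5 anaphylatoxin, at 4.67 ± 1.07, 8.1 ± 1.95, 17.8 ± 3.56 and 26.9 ± 3.13 CPM in BaPs, pre-basophils, mature BM and spleen basophils (BaP against mature BM -1.89, SE 0.24, adjusted p = 2.51e-05). Itgam, the alpha chain of complement receptor CR3, had 58.6 ± 12.7, 110.6 ± 11.3, 220.6 ± 13.3 and 172.7 ± 7.56 CPM (-1.90, SE 0.15, adjusted p = 4.31e-07). Its partner chain Itgb2 was highest in pre-basophils, at 363.7 ± 26.6 CPM against 206 ± 9.4 in BaPs and 305.9 ± 21.4 in mature BM basophils, and was called against BaPs (BaP against pre-basophil -0.82, adjusted p = 0.000819) but not against mature BM basophils (0.25, adjusted p = 0.103). In the other direction, BaPs had more C1qbp, a mitochondrial protein that also binds C1q (2.18, adjusted p = 1.15e-05), and more Cd59b, which blocks the membrane attack complex (1.87, adjusted p = 0.000982). Itgax, an integrin alpha chain of myeloid and dendritic cells, was also called higher in BaPs (2.23, adjusted p = 0.00799), at 15.1 ± 14.9 CPM, and without BaP replicate 3 it was not (0.95, adjusted p = 0.0599), which left 3 higher. Ly6c2 and the T and NK cell markers were also high in that replicate, and the part of other cells in the Itgax level was not tested.

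Most of the called genes among the other chemoattractant receptors went in the direction of C3ar1 and C5ar1. Of 9 tested, 1 was higher and 4 lower in pre-basophils than in mature BM basophils (median -0.69), and 1 was higher and 6 lower in BaPs (median -1.06). Over all genes 16.3% were called higher and 11% lower in pre-basophils, and 25.3% and 19.7% in BaPs. Cxcr2, a receptor for CXC chemokines that is abundant on neutrophils, had 31.4 ± 4.7 CPM in BaPs, 67.2 ± 9.28 in pre-basophils, 188.4 ± 32.5 in mature BM and 186.6 ± 7.97 in mature spleen basophils (BaP against mature BM -2.58, SE 0.16, adjusted p = 7.65e-08). Hrh4, the histamine H4 receptor, had 4.96 ± 1.46, 12.9 ± 1.67, 23.3 ± 3.38 and 19 ± 2.2 CPM (-2.25, SE 0.22, adjusted p = 2.75e-06). Ccr3, the eotaxin receptor, was at 5.11 ± 0.643 CPM in pre-basophils and 17.9 ± 4.52 in mature BM basophils (-1.80, SE 0.48, adjusted p = 0.0128). BaPs, at 5.76 ± 5.72 CPM, differed from mature BM basophils by -1.47 (adjusted p = 0.0162), and by -2.85 without BaP replicate 3. Ccr1, a receptor for CC chemokines, differed between BaPs and mature BM basophils (-0.86, adjusted p = 0.00352) but gave -0.06 for pre-basophil against mature BM basophil (adjusted p = 0.85). Ltb4r1, the leukotriene B4 receptor, was the one called higher in pre-basophils, at 83.9 ± 10.5 against 40.5 ± 4.97 CPM (1.05, adjusted p = 0.00268).

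Of 14 tested genes of the G protein machinery of such receptors, 0 were higher and 3 lower in pre-basophils than in mature BM basophils (median -0.29), and 0 were higher and 9 lower in BaPs (median -0.74). The shares lower over all genes were 11% and 19.7%. Gng2, a gamma subunit, had 79.2 ± 5.95 CPM in BaPs, 113.1 ± 6.7 in pre-basophils and 209.2 ± 8.97 in mature BM basophils (BaP against mature BM -1.40, SE 0.12, adjusted p = 7.77e-07). Gna15, a promiscuous alpha subunit of blood cells, had 33.2 ± 4.7, 40.1 ± 2.3 and 67.1 ± 5.73 CPM (-1.02, adjusted p = 2.32e-05). Gnai2, an inhibitory alpha subunit, had 833.2 ± 186.6 CPM in BaPs and 1124 ± 53.9 in mature BM basophils (-0.43, adjusted p = 0.0246). Without BaP replicate 3, 1 was higher and 11 were lower in BaPs, again with no share over all genes given for that fit.

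Between BaPs and pre-basophils, where 7.08% of all genes were called, the adaptors and kinases had 1 higher and 1 lower in BaPs, the complement receptors and regulators 1 higher and 2 lower, the chemoattractant receptors 0 higher and 3 lower and the G protein genes 0 higher and 4 lower. Without BaP replicate 3, 2 accessory proteins were higher and 2 transcription factors lower in BaPs, and those lower numbered 4 adaptors and kinases, 3 complement genes, 4 chemoattractant receptors and 5 G protein genes. That fit called 1831 genes in all, against 1068 in the main fit. The larger counts of the lists thus came with more calls over all genes. Between spleen and marrow, where 7.83% of all genes were called, 1 of the adaptors and kinases was higher in the spleen (Irak1, 0.54, adjusted p = 0.0144), as was 1 of the G protein genes, the receptor kinase gene Grk2 (0.84, adjusted p = 0.0219). Among the complement genes Cr2, a receptor of B cells, was higher there (2.88, adjusted p = 0.00491) and Itgb2 lower (-0.52, adjusted p = 0.0136). Cr2 was at 5.97 CPM in the spleen and at most 0.752 CPM in any other group. It passed the filter through the spleen, so its call supports nothing. These genes were named after their values were seen.

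**Figure D4:**
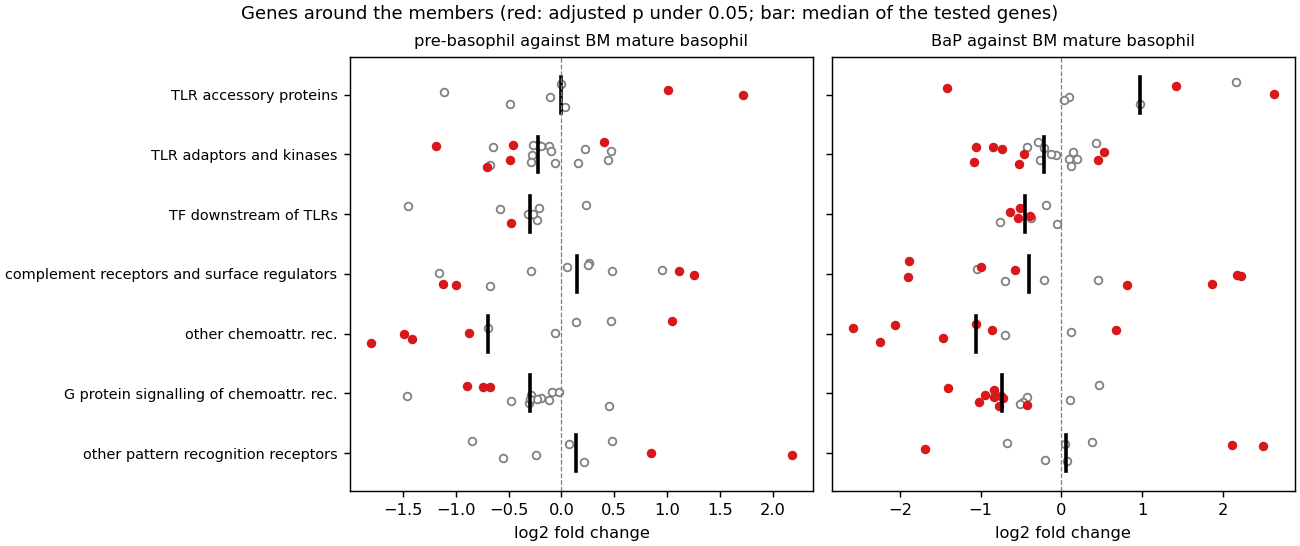
Log2 fold changes of the tested genes in 7 lists around the receptors, for pre-basophil against mature BM basophil and BaP against mature BM basophil, with red points for an adjusted p under 0.05 and a bar for each list's median. The chemoattractant receptors have medians of -0.69 and -1.06, and the G protein genes of -0.29 and -0.74.

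The genes with profiles most like the 3 members with the largest F statistic were found by the root mean square (RMS) difference of centred log2 CPM over 12 libraries, given as a description. For C3ar1 they were Gm2808 (RMS 0.211), Oit3 (0.246), Gm49339 (0.253), the CC chemokine gene Ccl9 (0.255) and Pdzd4 (0.262). For C5ar1 they were Lilr4b (0.334), the metalloprotease gene Adam8 (0.381), Gm49339 (0.389), Lilrb4a (0.405) and the galectin gene Lgals3 (0.412). C3ar1 was the seventh closest gene to C5ar1 (0.438), and C5ar1 ranked 35 for C3ar1. For Myd88 they were Prkd2 (0.0942), Kidins220 (0.102), Dedd2 (0.113), Rasal3 (0.116) and Mast3 (0.127), each highest in the spleen on average. Lilr4b and Lilrb4a are close paralogs whose reads could be split between them.

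**Figure D5:**
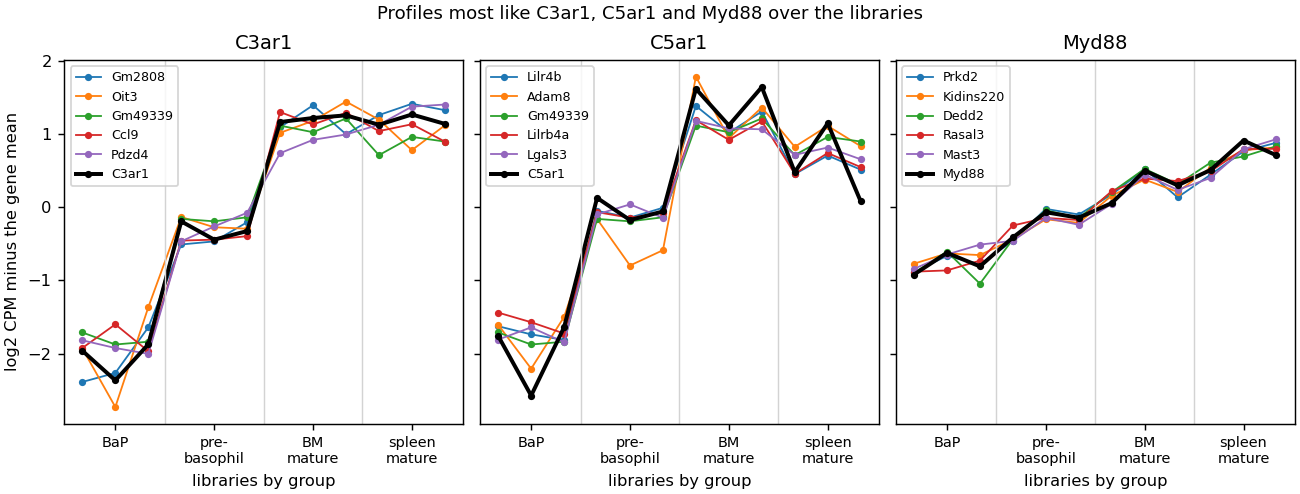
Log2 CPM minus the gene's own mean in each of the 12 libraries, for C3ar1, C5ar1 and Myd88 (black) and the 5 genes with the smallest RMS difference from each. C3ar1 is level between marrow and mature spleen basophils, C5ar1 spreads in the spleen, and Myd88 is highest there.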

How the data were processed

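Sorted cells were lysed, their mRNA was captured on oligo-dT beads and amplified, and fragmented libraries were sequenced on an Illumina instrument. The deposited values are raw counts of reads per gene, which the authors made by trimming with Cutadapt 3.4 and aligning with Bowtie2 2.4.2. The study's methods name the GRCm38 reference RNA, whereas the submitters' processing notes name GRCm39, and coordinates here are GRCm38 from the annotation. How strand and reads matching several genes were handled is not stated in the sources used here. There are no molecular identifiers, so intervals and floors cover counting error only.

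Counts were analysed with edgeR 4.0.16 in R 4.3.3. Genes passed filterByExpr (at least 10 counts, about 1.9 CPM), scaling was TMM (factors 0.844 to 1.3), and 1 quasi-likelihood fit with 4 group means covered all 12 libraries. A gene was called where its p, adjusted by Benjamini-Hochberg over 15083 tested genes, was under 0.05. Fold changes are of the group named first. Intervals on log2 fold changes are 95%, from the model's standard error (SE), and those on summed counts are exact. The sources do not say that replicates are separate sorts or cohorts, so p-values measure the spread between these libraries. No pair within a group was a duplicate (chi-square per degree of freedom 4.16 to 35). On simulated data for pre-basophil against mature BM basophil (14584 genes), 48% of 2-fold and 95% of 4-fold changes were recovered with 7 false calls. The changed genes were drawn only from genes with a higher mean level than Tlr1, Tlr4, Tlr6 and Fpr2. This recovery therefore does not cover those genes. Only 100 genes per fold were changed, in pre-basophils, with increases and decreases in balance. The real comparison called 27.3% of all genes, so the false calls were not counted under so wide a shift.

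The genes and lists were chosen with earlier results of these data known. Genes named from a list were that with the highest mean CPM (not scaled by length) and up to 2 called genes at either end of the pre-basophil and BaP comparisons with mature BM basophils. Some listed genes were not analysed here, and 1 cell type marker is not reported here and was left out of its sum. Profiles were compared on log2 CPM with a prior count of 2. Promoter sequences are RefSeq's (GRCm38.p6). Deviations from the group means correlated between marrow libraries of the same replicate number (0.125 to 0.262 over the 3 marrow comparisons, every pair above 0.1), so the numbers were taken to pair these, but not between spleen and marrow (0.00763 to 0.0254). The main fit left this pairing out, and its p-values for the marrow comparisons do not use it. With the replicate block in edgeR, Myd88 for pre-basophil against mature BM basophil had adjusted p = 0.00333 in place of 0.027. Alternatives were library size alone, relative log expression, DESeq2 1.42.0, limma-voom (limma 3.58.1), 3 rounds of TMM with called genes set aside and a likelihood ratio test, rebuilt after the study's package TCC, no filter, a replicate block, only the groups compared, and each library left out.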

Additional observations from a re-analysis of the deposited data

How the results depend on the processing

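C3ar1 and C5ar1 passed the threshold in the 3 marrow comparisons under all 14 alternatives of each, with log2 fold changes for pre-basophil against mature BM basophil from -1.60 to -1.31 and from -1.66 to -1.29, and Tlr6 and Myd88 did so for BaP against mature BM basophil. Leaving out 1 library at a time, the number called for pre-basophil against mature BM basophil ran from 2 to 5. For spleen against mature BM basophil, with 0 called, DESeq2 and limma-voom called 1 each, the repeated TMM scheme 2, no filter 2 and a fit of only these groups 3, and leave-one-out fits 0 to 1 (without mature spleen replicate 2). The replicate block called 1 there, Myd88 (0.43, adjusted p = 0.0197), although the numbers did not pair those libraries, and in the marrow comparisons it changed no call but that of Tlr1 given above. Over all genes, BaP against pre-basophil called 1068, and 1620 with library size alone, 2091 with no filter, 375 in a fit of only these groups and 382 to 1831 leaving out 1 library (1831 without BaP replicate 3, and 382, 390 or 471 when a pre-basophil library was dropped). Spleen against mature BM basophil called 1181, and 1452 with the repeated TMM scheme, 1796 with no filter, 2340 with only these groups and 241 to 757 leaving out any of the 6 libraries. The cause was not tested.

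No called difference changed direction. Those that turned were uncalled: with library size alone, Fpr2 for BaP against pre-basophil (0.11) and C3ar1 for spleen against mature BM basophil (0.10), and with limma-voom Fpr2 for the latter (-0.01). Leaving out 1 library, BaP against pre-basophil ran from -0.31 to 0.51 for Tlr1, -0.94 to 0.67 for Tlr4 and -1.06 to 0.89 for Fpr2, BaP against mature BM basophil from -0.55 to 1.58 for Tlr4, and spleen against mature BM basophil from -0.54 to 0.31 for Tlr1 and from -0.89 to 3.30 for Fpr2. Over single genes and alternatives, 319 values kept direction and side of the threshold, 34 lost the call, 16 gained it and 14 turned. The fit of only the groups compared gave no value for genes it filtered out. Depth limits Tlr2, Cd14, Fpr1 and Fpr2, which had 0 to 14, 0 to 17, 0 to 16 and 0 to 41 counts per library.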

Other observations

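Other sensors of microbes and damage did not move as 1 group. Of 8 tested, 2 were higher and 0 lower in pre-basophils than in mature BM basophils (median 0.14), and 2 were higher and 1 lower in BaPs (median 0.06), where 27.3% and 45% of all genes were called. Cgas, the sensor of cytosolic DNA, had 29.4 ± 4.8 CPM in BaPs (SD, n = 3), 23.5 ± 4.3 in pre-basophils, 5.34 ± 2.07 in mature BM and 4.42 ± 1.5 in mature spleen basophils (pre-basophil against mature BM 2.18, SE 0.30, adjusted p = 0.000142). Nlrp3, an inflammasome sensor, had 435.6 ± 221.5, 782.2 ± 227.4, 1405 ± 434.9 and 734.5 ± 32.1 CPM in the same order, and was called lower in BaPs than in mature BM basophils (-1.69, SE 0.32, adjusted p = 0.000705). Clec4e, the Mincle receptor for mycobacterial glycolipids, had 104.3 ± 21.7 CPM in pre-basophils and 58.4 ± 20.7 in mature BM basophils (0.85, adjusted p = 0.0461), and 11.4 ± 1.56 CPM in mature spleen basophils, lower than in the marrow (-2.34, SE 0.32, adjusted p = 0.00221). Nod1, a cytosolic sensor of bacterial peptidoglycan, was called higher in BaPs than in mature BM basophils (2.11, SE 0.70, adjusted p = 0.0243), with an SD of 8.4 CPM around a BaP mean of 7.56 CPM, and without BaP replicate 3 the call was lost (0.56, adjusted p = 0.395).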
